A study of Mus musculus with 117 samples.

Results

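The bins described here are the stretches of 200 bp on autosomes 1 to 19 where hepatocytes of 3 wild-derived mouse strains shared 1 chromatin state and hepatocytes of 6 laboratory strains all shared a different one. They numbered 17439 of 12313718 autosomal bins, or 0.142%, and added up to 3487.8 kb. The wild-derived strains were CAST/EiJ, PWK/PhJ and WSB/EiJ, and the laboratory strains C57BL/6J, 129S1/SvImJ, A/J, DBA/2J, NOD/ShiLtJ and NZO/HlLtJ. The labels name each strain but do not call it wild-derived or laboratory. As background, CAST/EiJ and PWK/PhJ descend from other subspecies of house mouse than WSB/EiJ does, while the genomes of the laboratory strains come mostly from the subspecies of WSB/EiJ. NOD/ShiLtJ is a model of autoimmune diabetes and NZO/HlLtJ a model of obesity.

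All mice were females 12 weeks old, per the labels. In each strain chromatin immunoprecipitation sequencing (ChIP-seq) was done on hepatocytes, the metabolic cells that make up most of the liver, for 4 histone marks in 3 mice, with 1 input library of chromatin that saw no antibody. A strain's 13 libraries stand behind 1 deposited segmentation, in which every bin carries the number of 1 of 14 states. Mice within a strain are pooled there, so the strain was the unit, with n = 3 against n = 6, and no bin has an error of its own. The number of reads behind the segmentations is unknown, so no depth could be given for any value.

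A chromatin state is a recurrent combination of histone marks. H3K4me3 is known for active gene starts, H3K4me1 for enhancers, H3K27ac for active enhancers and starts, and H3K27me3 for genes kept silent by Polycomb proteins. A segmentation model reads the marks bin by bin and gives each bin the state that describes it best, so a swap of state between strains means that the combination of marks called there differs. The mark content of the 14 states is not given in the sources used here, and the numbers serve only as names.

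Landmark genes showed where the states of the swaps usually lie. Bins within 1 kb of a gene start made up 62.9% ± 3.22 of state 3, 18.7% ± 1.48 of state 1 and 1.24% ± 0.0510 of state 14 (SD, n = 9 strains). Genes for proteins that hepatocytes secrete had 41.1% ± 3.09 of their bins in state 1 and 22.3% ± 3.80 in state 2. They had 12.0% ± 2.04 in state 4 and only 5.30% ± 0.947 in state 14, the state of most other sequence. In genes for developmental regulators, which are silent in adult liver, state 13 held 60.1% ± 3.38 and state 14 held 18.1% ± 3.81. State 14 was the widest, with 76.6% ± 1.47 of the autosomes, and state 13 followed with 11.1% ± 1.36. States 1, 2, 4 and 6 each held between 2.30% and 2.73% on average.

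The start bin itself fitted the rule at 21 genes. Sequences of 5 of them are shown, each with another swap and picked for the most bins around the start, because the strain groups split there exactly at a start. Each line gives the 250 bases before the start in the direction of transcription, from the RefSeq promoter table of build GRCm38.p6. That is the sequence of the reference strain C57BL/6J, so it shows no difference between strains. Capitals mark matches on either strand to the TATA box (TATAAA), to the CCAAT box (by the letters of its name), to the GC box (GGGCGG) or to the core of forkhead sites (TGTTTAC), and no match overlapped another. Olfr1356 lies at chr10:78847914-78848163 on the minus strand, Ninj2 at chr6:120093130-120093379 on the plus strand, Olfr397 at chr11:73964360-73964609 on the plus strand, Syne3 at chr12:104998678-104998927 on the minus strand, and Adh7 at chr3:138217523-138217772 on the plus strand. Syne3 and Adh7 are shown at a start that lies inside the annotated gene.
Olfr1356: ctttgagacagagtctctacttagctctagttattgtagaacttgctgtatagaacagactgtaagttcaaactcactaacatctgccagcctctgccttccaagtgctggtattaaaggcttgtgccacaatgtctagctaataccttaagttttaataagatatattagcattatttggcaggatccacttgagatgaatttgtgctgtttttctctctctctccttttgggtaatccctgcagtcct
Ninj2: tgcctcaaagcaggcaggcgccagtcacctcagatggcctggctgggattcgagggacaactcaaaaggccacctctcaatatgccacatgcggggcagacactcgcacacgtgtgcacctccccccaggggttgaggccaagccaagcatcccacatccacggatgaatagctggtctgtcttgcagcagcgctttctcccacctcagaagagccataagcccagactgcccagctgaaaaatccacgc
Olfr397: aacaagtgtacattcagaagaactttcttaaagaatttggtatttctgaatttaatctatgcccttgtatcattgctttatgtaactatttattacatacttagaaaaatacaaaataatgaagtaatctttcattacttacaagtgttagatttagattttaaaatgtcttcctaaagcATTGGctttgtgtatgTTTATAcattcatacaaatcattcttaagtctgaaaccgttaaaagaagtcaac
Syne3: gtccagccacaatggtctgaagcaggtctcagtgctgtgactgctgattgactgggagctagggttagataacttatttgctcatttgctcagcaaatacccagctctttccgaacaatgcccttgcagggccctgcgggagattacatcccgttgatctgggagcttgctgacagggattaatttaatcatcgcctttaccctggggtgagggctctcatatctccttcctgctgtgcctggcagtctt
Adh7: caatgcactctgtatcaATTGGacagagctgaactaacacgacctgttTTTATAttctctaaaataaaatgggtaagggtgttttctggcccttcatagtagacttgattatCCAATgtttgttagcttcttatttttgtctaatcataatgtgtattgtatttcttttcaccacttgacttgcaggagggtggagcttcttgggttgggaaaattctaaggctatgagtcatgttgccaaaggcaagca

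The 5 windows differed in base composition. Ninj2, where the wild-derived strains were in state 4 and the laboratory strains in state 14, had 58.8% G and C and 8 CG pairs. Syne3, in state 2 against state 1, had 51.2% and 4 CG pairs. Olfr1356, Olfr397 and Adh7 had 39.6%, 26.4% and 38.0%, with 0, 1 and 1 CG pairs. Over the table's 32851 such windows the medians were 52.4% and 6 CG pairs. Olfr397 held a CCAAT box 70 bases and a TATA box 54 bases before the start, both on the opposite strand. Adh7 held CCAAT boxes 233 and 138 bases before the start and a TATA box 202 bases before it. Across all windows, the CCAAT box was found in 33.8%, the GC box in 32.7%, the TATA box in 12.4% and the forkhead core in 3.17%. A match describes the letters of the reference and is not shown to be a site in use.

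Exchanges between states 13 and 14 made up most of the swaps. The wild-derived strains were in state 13 and the laboratory strains in state 14 in 5438 bins, or 31.2%. The opposite order held 4422 bins, or 25.4%. In sum 56.5% of the bins were exchanges between state 13 and state 14, the state that fills most of the genome. Developmental regulators, although mostly in state 13, are a small list of 5986 bins. Of these 4 fitted the rule, or 0.0668%, against 0.142% of all autosomal bins, and 2 of the 4 were exchanges between 13 and 14. The 56.5% used the states that chose the bins, so it is a description with no test. Among bins with exactly 2 states over the 9 strains, in any pattern, 13 and 14 were the pair in 2713864 of 4015348, a larger share. These 2 counts leave out chromosome 18. The predominance of this pair was thus not particular to the split of wild-derived and laboratory strains. Of the 182 ordered pairs of different states, 68 occurred.

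The other frequent swaps involved states 1, 2, 4, 6 and 14. State 14 in the wild-derived strains stood against state 6 in the laboratory strains in 1521 bins, and the opposite order held 833. State 4 stood against state 14 in 1071 bins, and the opposite order held 589. Within the states typical of hepatocyte genes, state 2 in the wild-derived strains stood against state 1 in the laboratory strains in 993 bins, and the opposite order held 242. State 4 stood against state 2 in 499 bins and state 2 against state 4 in 136. The most one-sided of the frequent swaps, with all 9 strains, was state 14 against state 9, with 344 bins, while state 9 against state 14 held 6. This rested in large part on PWK/PhJ: without it 380 bins stood against 127. State 4 against 14 was then more one-sided, with 7277 against 1119.

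**Figure D1:**
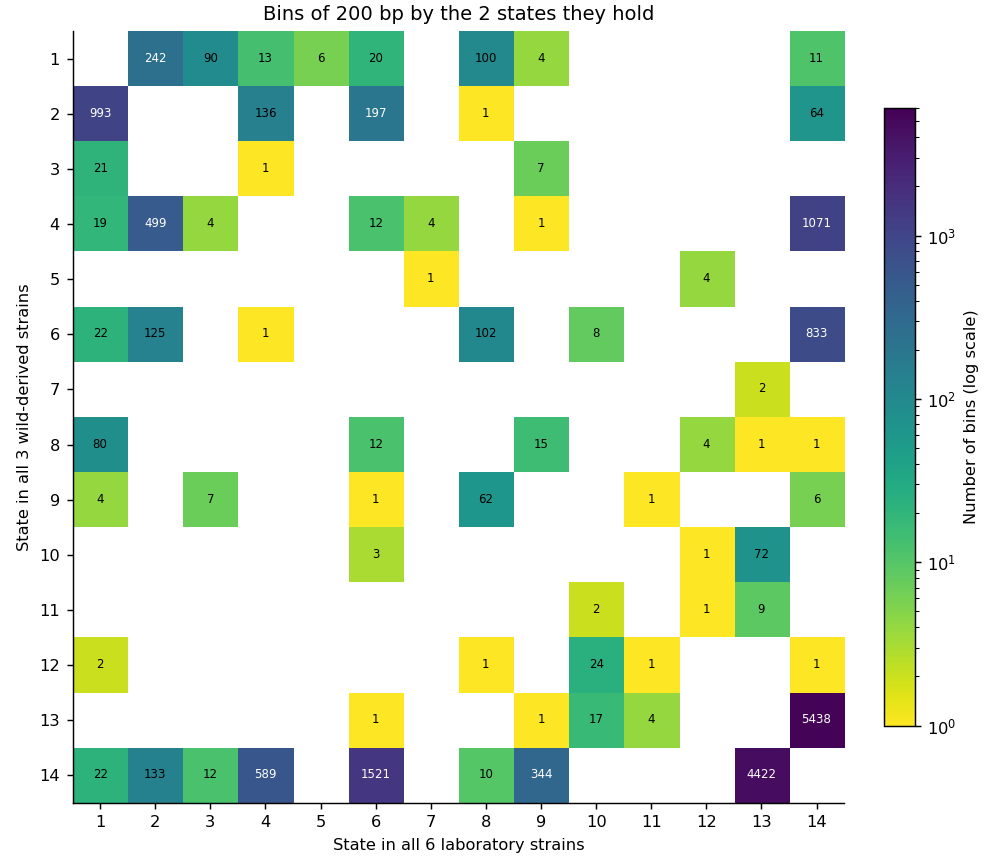
Number of 200-bp bins for each pair of states, with the state of all 3 wild-derived strains on the vertical axis, the state of all 6 laboratory strains on the horizontal axis, and color on a log scale. The cells for 13 against 14 (5438) and 14 against 13 (4422) hold the most bins, and 14 against 9 (344) has almost no counterpart in 9 against 14 (6). Without PWK/PhJ, which is not drawn, 14 against 9 held 380 bins and 9 against 14 held 127.

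Some exchanges held few bins. State 3, the state of gene starts, was on either side in 142 bins, or 0.814%. It held only 0.410% of the autosomes on average, so this low number does not mean that swaps avoided it. Among the bins that fit, it was the state of the wild-derived strains in 0.166% and of the laboratory strains in 0.648%. States 1 to 3 in 1 group with state 13 or 14 in the other group held 242 bins, or 1.39%. State 13 against any of states 1 to 9 held 5 bins. The wild-derived strains were in state 14 in 40.4% of the bins, the laboratory strains in 42.6%, and neither group in 17.0%. These shares rested on PWK/PhJ: without it the wild-derived strains were in state 14 in 24.8% of the bins that then fitted.

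The preference between orders depended in part on single strains. State 13 against 14 was more frequent than the opposite with all 9 strains, but not without C57BL/6J (6472 against 7146) or without DBA/2J (6729 against 7265). State 14 against 6 was more frequent than 6 against 14 except without WSB/EiJ, where 5784 stood against 7131. Leaving out any other strain changed neither order. The preference for 2 against 1, for 4 against 14, for 4 against 2 and for 14 against 9 kept its direction with each strain left out in turn. That for 14 against 9 was much weaker without PWK/PhJ, as given above.

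WSB/EiJ limited the number of bins that fit. In 117447 autosomal bins the rule failed through WSB/EiJ alone, and in 115177 of these WSB/EiJ had the state of the laboratory strains. CAST/EiJ alone failed the rule in 33620 bins and PWK/PhJ alone in 36477. Among the laboratory strains this number was lowest for A/J, at 5890, and highest for C57BL/6J, at 7787. With 1 wild-derived strain left out, the number of fitting bins was 51059 without CAST/EiJ, 53916 without PWK/PhJ and 134886 without WSB/EiJ. A rule over 8 strains is easier to meet than a rule over 9, and the number rose with each laboratory strain left out as well, to between 23329 and 25226.

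**Figure D2:**
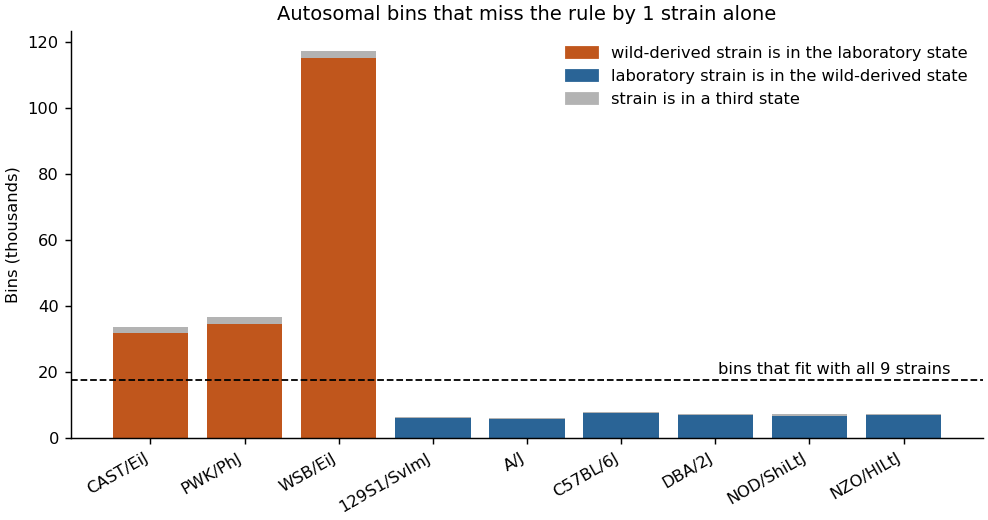
Autosomal bins that missed the rule through 1 strain alone, with bars split by whether that strain was in the state of the other group or in a state of neither group. The bar of WSB/EiJ reaches 117447 bins, against 33620 and 36477 for the other wild-derived strains and at most 7787 for a laboratory strain, and the dashed line marks the 17439 bins that fit.

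The 115177 bins where CAST/EiJ and PWK/PhJ differed from the other 7 strains show how the set changes when WSB/EiJ is counted on the other side. Exchanges between states 13 and 14 made up 73.7% there, against 56.5% in the bins that follow the wild-derived and laboratory split. Swaps within states 1, 2 and 4 made up 4.81% there and 10.9% here. State 14 against 9 made up 0.433% there and 1.97% here. No test was made of these shares, since neighbouring bins are not independent.

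Most of the bins lay in short runs. Adjacent bins with the same swap formed 8803 runs, of which 5132, or 58.3%, were a single bin. Runs of at least 3 bins numbered 1786 and held 48.95% of the bins. Runs of at least 10 bins numbered 97, and the longest spanned 6400 bp. Around each run, the stretch where at least 2 of the 3 wild-derived and at least 4 of the 6 laboratory strains kept the same states had a median length of 1000 bp. It was longer than the run in 82.2% of the runs.

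The bins were unevenly spread. Their share of a chromosome ran from 0.0907% on chromosome 1 to 0.194% on chromosome 16. Of 24639 windows of 100 kb, 18568, or 75.4%, held none, and 44 held at least 20. The windows named here were chosen after their values were seen, as the 12 with the most bins.

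The densest window lay in the cluster of major urinary protein genes on chromosome 4, from 61800001 to 61900000. Major urinary proteins are pheromone carriers made by the liver. There 104 of the window's bins, or 20.8%, fitted the rule, and in all 104 the wild-derived strains were in state 14 and the laboratory strains in state 13. In the whole window state 14 held 378 bins in CAST/EiJ, 264 in PWK/PhJ and 389 in WSB/EiJ, while the laboratory strains had between 6 and 89 with a median of 31. State 13 held 0 bins in CAST/EiJ and in WSB/EiJ but 206 in PWK/PhJ, and between 187 and 411 in the laboratory strains. PWK/PhJ therefore overlapped the laboratory strains in state 13 and stood apart from them in state 14. The longest run of all, chr4:61876401-61882800, lay over the pseudogene Mup-ps18, 18358 bp from Mup5. The runs chr4:61900201-61904800 and chr4:61893601-61897400 lay nearby and were also among the 10 longest. The genes of this cluster are close copies, and how reads shared by copies were placed is not given in the sources used here, so these values are uncertain.

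**Figure D3:**
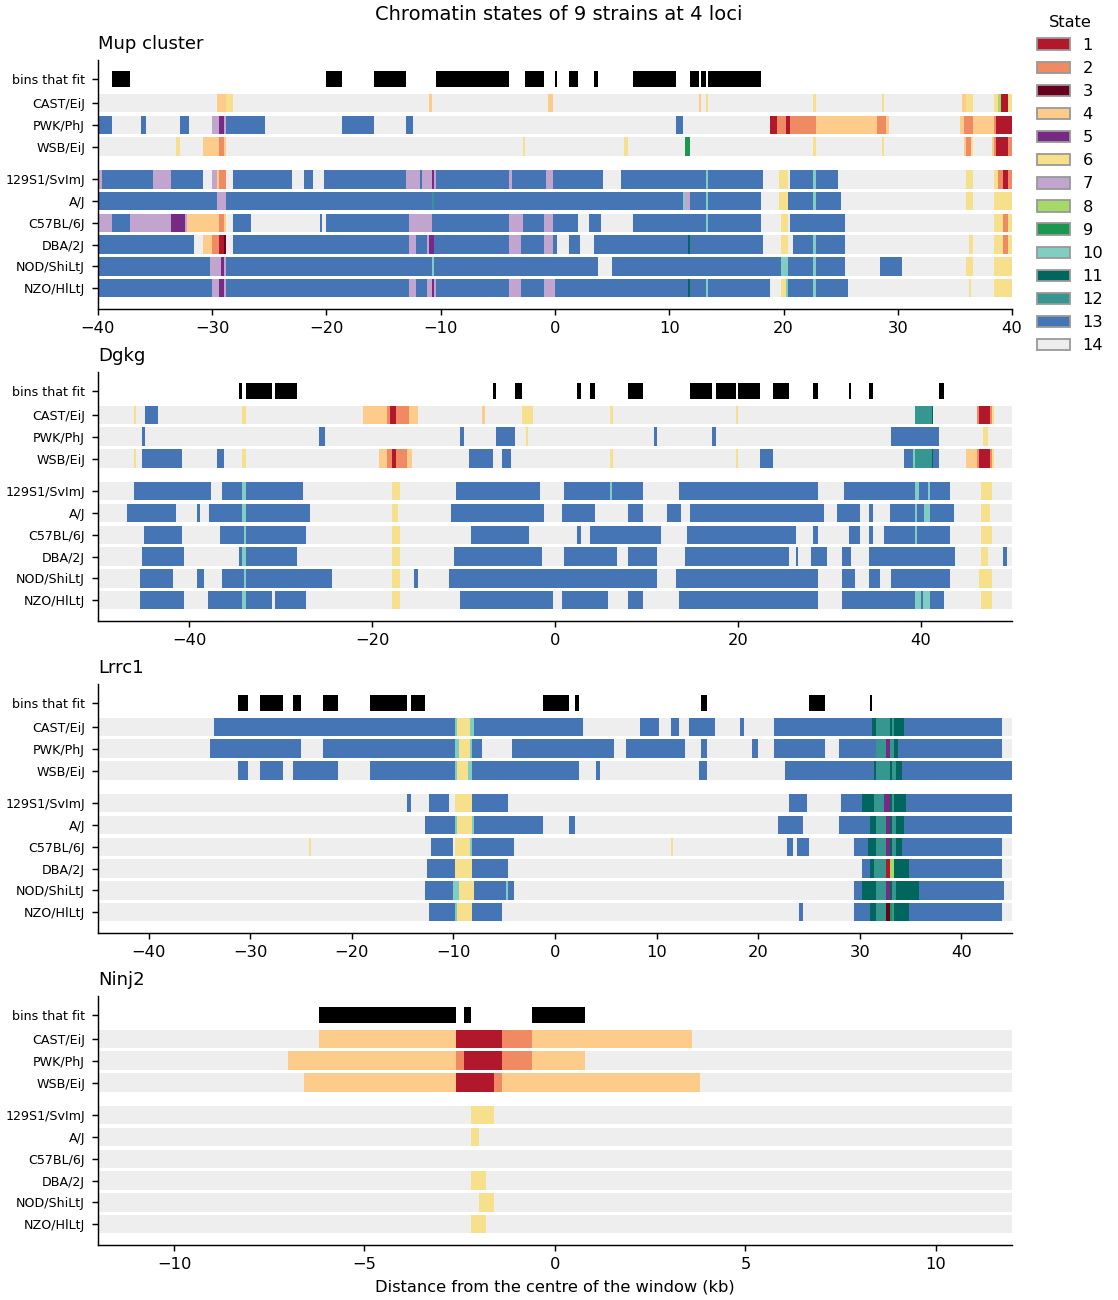
States of the 9 strains, as colors, along 4 loci, with the distance from the centre of the window in kb on the horizontal axis, the bins that fit as black bars on top, then the 3 wild-derived and the 6 laboratory strains. In the Mup cluster and Dgkg the laboratory strains are in state 13 (blue) where the wild-derived strains are in state 14 (grey), in Lrrc1 the colors are exchanged, and at Ninj2 the wild-derived strains have states 1, 2 and 4 where the laboratory strains are almost all in state 14.

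A similar exchange filled part of the Cyp3a cluster on chromosome 5, a family of drug-metabolising cytochrome P450 enzymes. In the window from 145600001 to 145700000, 39 bins fitted, all with state 14 in the wild-derived and state 13 in the laboratory strains. Over the whole window, state 13 held 0 bins in CAST/EiJ, 66 in PWK/PhJ and 0 in WSB/EiJ, and between 192 and 403 in the laboratory strains with a median of 273. State 1 held 90, 55 and 71 bins in CAST/EiJ, PWK/PhJ and WSB/EiJ and between 10 and 30 in the laboratory strains. State 2 held 72, 62 and 93 bins against 5 to 19. The groups overlapped in none of these 3 states. The run chr5:145671001-145675400, 18649 bp from Cyp3a41a, ranked among the 10 longest, with a majority stretch of 15400 bp. These genes are close copies as well.

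Genes were counted where at least 1 bin that fits lay in the gene or within 1 kb of it. This held for 2772 of 20665 protein-coding autosomal genes, or 13.4%. At least 3 bins were found in 880 genes, or 4.26%. Genes with a bin were long, with a median of 71053.5 bp against 14510 bp for genes without one, so long genes fill the list by their size. State 14 was the state of the wild-derived strains in a bin of 1191 genes and of the laboratory strains in a bin of 791, and 1190 genes had a bin with neither group in state 14. A gene can be in more than 1 of these counts.

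Dgkg had the most bins, 97 of 965, all with state 14 in the wild-derived and state 13 in the laboratory strains. It encodes diacylglycerol kinase gamma, which turns the lipid messenger diacylglycerol into phosphatidic acid, and lies at chr16:22466568-22657302. State 13 held 9 of its bins in CAST/EiJ, 53 in PWK/PhJ and 182 in WSB/EiJ, and between 267 and 394 in the laboratory strains with a median of 350. The groups did not overlap, and WSB/EiJ was the nearest of the wild-derived strains to the laboratory strains. This lack of overlap rested on the 97 bins, which by the rule were in state 13 in every laboratory strain and in no wild-derived strain. The gap between WSB/EiJ and the lowest laboratory strain was smaller than 97 bins, so without them the groups would overlap. These counts include the bins that chose the gene, as do all counts per gene below, and are given without a test. How often the groups fail to overlap over all genes or windows was not counted. A lack of overlap, here and at the other genes and windows named, therefore describes that place only.

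Lrrc1 showed the opposite exchange. Of its 589 bins 79 fitted the rule, 78 of them with state 13 in the wild-derived and state 14 in the laboratory strains. It encodes a leucine-rich repeat protein of cell junctions and lies at chr9:77430821-77546464. State 13 held 259 of its bins in CAST/EiJ, 255 in PWK/PhJ and 191 in WSB/EiJ, and between 37 and 86 in the laboratory strains with a median of 49. Its longest run, chr9:77493601-77497200, spanned 3600 bp inside a majority stretch of 21000 bp. In the plot of states along the loci a short stretch of state 6 was present in all 9 strains.

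Lsamp, Plxdc2, Cfap299 and Agbl1 also had mostly state 13 in the wild-derived strains, in 78 of 80, 49 of 51, 31 of 33 and 31 of 32 bins. Lsamp encodes a cell adhesion molecule of neurons and Plxdc2 a transmembrane protein with a plexin domain. In Plxdc2 state 13 held 636 bins in CAST/EiJ, 239 in PWK/PhJ and 171 in WSB/EiJ, and between 53 and 133 in the laboratory strains. In Cfap299 it held 1087, 517 and 1023 bins, and between 404 and 854 in the laboratory strains, so over the whole gene the groups overlapped although 31 bins split exactly. Dlgap2, Cadps and Ano4 had the opposite exchange in 37 of 40, 35 of 35 and 29 of 29 bins. Dlgap2 encodes a scaffold protein of synapses and Cadps a protein of vesicle release in neurons.

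Pparg lay in another dense window, at chr6:115300001-115400000. It encodes a nuclear receptor that controls fat storage. All 42 bins of the window had state 13 in the wild-derived and state 14 in the laboratory strains. Over the window, state 13 held 105 bins in CAST/EiJ, 417 in PWK/PhJ and 121 in WSB/EiJ, and between 0 and 72 in the laboratory strains with a median of 19. The 42 bins lay outside the gene and its flank of 1 kb, where only 3 other bins fitted, with swaps 2 against 1, 4 against 2 and 8 against 1.

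In other genes the laboratory strains had states 1, 2, 4 or 6 where the wild-derived strains had state 14. Camk1d, a calcium-dependent protein kinase at chr2:5293457-5714860, had 53 bins of state 14 against 6 among its 55. State 6 held 53 of its 2118 bins in CAST/EiJ, 36 in PWK/PhJ and 86 in WSB/EiJ, and between 174 and 714 in the laboratory strains with a median of 390.5. State 2 held 13, 10 and 88 bins against 104 to 238. The groups did not overlap in either state, and WSB/EiJ lay closest to the laboratory strains.

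Dclk3, a protein kinase of the doublecortin-like family at chr9:111439081-111489611, had 40 of 264 bins that fit the rule, of which 19 were 14 against 4 and 15 were 14 against 2. State 1 held 9 bins in CAST/EiJ, 6 in PWK/PhJ and 20 in WSB/EiJ, and between 61 and 71 in the laboratory strains. State 14 held 204, 202 and 188 bins against 57 to 81. In Lrrc9 the same kinds of swap held 23 of 32 bins, and state 2 held 1, 1 and 7 bins against 24 to 33. In Dclk3 and Lrrc9 alike the laboratory strains had more of states 1, 2 and 4 without overlap between the groups, with the bins that fit included. For state 4 this rested on those bins: it held 4 to 22 bins against 32 to 58 in Dclk3 and 3 to 6 against 17 to 42 in Lrrc9. Without the bins that fit, the groups would not stand apart in state 4 in either gene, nor in state 1 in Lrrc9.

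The opposite was seen at chr3:157700001-157800000, a window with 42 bins and no protein-coding gene. There state 1 held 63 bins in CAST/EiJ, 58 in PWK/PhJ and 51 in WSB/EiJ, and between 6 and 24 in the laboratory strains. State 4 held 165, 118 and 129 bins against 66 to 98. The commonest swap was 1 against 2, with 23 bins. Tex2 and Arhgef3 had swaps among states 1, 2 and 4: in Tex2 13 bins were 2 against 1 and 12 were 4 against 2, and state 1 held 117, 130 and 129 bins against 151 to 184.

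Positions relative to gene starts were taken on the 18 autosomes for which the promoter table gives starts, all but chromosome 18. Of the bins there that fit the rule, 2.82% lay within 1 kb of a start, against 2.45% of all autosomal bins and 2.69% of bins that held exactly 2 states over the 9 strains. Exchanges between 13 and 14 had 1.67% there and the other swaps 4.32%. Among bins with exactly 2 states the shares were 1.62% and 4.92%. The nearness of the other swaps to gene starts was thus also seen in bins that vary among the strains in any pattern. Protein-coding gene bodies held 77.4% of the 2 against 1 bins and 69.1% of the 14 against 6 bins, against 38.9% of all autosomal bins, and 31.8% of the 13 against 14 bins. Among bins with exactly 2 states they held 30.7% where the pair was 13 and 14 and 58.3% for other pairs. The share of the 13 against 14 bins was thus near that of any varying bin with this pair. Much of the excess of the other swaps over 38.9% was likewise seen in any pattern.

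The window around a single start covers only 11 bins, so a low number of genes with a swap there does not mean that swaps avoid starts. As given above, 2.82% of the bins that fit lay near a start, against 2.45% of all autosomal bins. At least 1 bin within 1 kb of a start fitted in 219 of the 16457 genes with a start in the table, or 1.33%, at least 3 bins in 18 genes, and the start bin itself in 21. Olfr1356, a gene for an odorant receptor, had the most, with 8 of 11 bins in state 14 against 13. All 11 bins were in state 14 in CAST/EiJ and in WSB/EiJ and 9 in PWK/PhJ, while state 13 held 11 in 5 laboratory strains and 10 in NZO/HlLtJ. At Olfr397 the order was the opposite: state 13 held all 11 bins in the wild-derived strains and between 0 and 5 in the laboratory strains. The start windows of Vmn2r10 and Vmn2r11, genes for pheromone receptors, each had 4 bins of 14 against 13. Receptor genes of both families have close copies, so the caution given for the major urinary protein genes holds for them too.

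Ninj2 was the only one of these 18 genes with 4 against 14 at its start. It encodes ninjurin 2, a cell surface adhesion protein, and lies at chr6:120093380-120200531. State 4 held 10 of the 11 bins around its start in CAST/EiJ, 7 in PWK/PhJ and 11 in WSB/EiJ, and all 11 were in state 14 in each of the 6 laboratory strains. A run of 3600 bp with the same swap, chr6:120086801-120090400, lay 2980 bp before the gene and was among the 10 longest. Between them the wild-derived strains were in states 1, 2 and 4, and the laboratory strains in state 14 or 6.

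Syne3 and Adh7 had other swaps at the starts shown above. Syne3 encodes nesprin-3, a protein of the nuclear envelope. State 1 held 3 of its 11 bins in CAST/EiJ, 4 in PWK/PhJ and 1 in WSB/EiJ, and 8, 9, 9, 9, 7 and 11 in 129S1/SvImJ, A/J, C57BL/6J, DBA/2J, NOD/ShiLtJ and NZO/HlLtJ. Adh7 encodes an alcohol dehydrogenase that also oxidises retinol. State 4 held 1, 0 and 4 of the bins in CAST/EiJ, PWK/PhJ and WSB/EiJ, 7 in NOD/ShiLtJ and all 11 in the other 5 laboratory strains. At Tnfaip8l3, which encodes a protein that binds phosphoinositides, 3 bins were in state 8 in the wild-derived and state 1 in the laboratory strains. Among microRNA hairpins of the RefSeq table, Mir804 at chr11:50357785-50357879 overlapped a bin that fits, with state 14 against 9.

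Gene lists showed which functions the bins fell in, each list being read against the 0.142% of all autosomal bins and the 13.4% of all protein-coding genes. Among enzymes that modify drugs and other foreign compounds, the share of bins that fit was 0.896% for UDP-glucuronosyltransferases, 0.892% for glutathione S-transferases, 0.753% for carboxylesterases and 0.584% for the cytochrome P450 families Cyp1, Cyp2 and Cyp3. In genes the counts were 10 of 22, 5 of 24, 4 of 19 and 7 of 59, the last being 11.9% and so under the share of all genes. Few genes held most of these bins. Ugt2b36 had 11 and Ugt3a2 7 of the 22 UDP-glucuronosyltransferase bins, Gstt1 7 of 15 and Ces2h 9 of 16. Cyp3a16, Cyp3a11 and Cyp3a44 had 22, 14 and 8 of the 52 cytochrome P450 bins. Of the 10 UDP-glucuronosyltransferase genes, 7 belong to the Ugt1a cluster, whose members share their last exons, and they shared 3 bins of 2 against 1 among them. How reads shared by these genes were placed is not given in the sources used here. The major urinary protein genes had 1.83% of their bins and 5 of 22 genes. Sulfotransferases had 0.0576% and 2 of 21 genes.

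**Figure D4:**
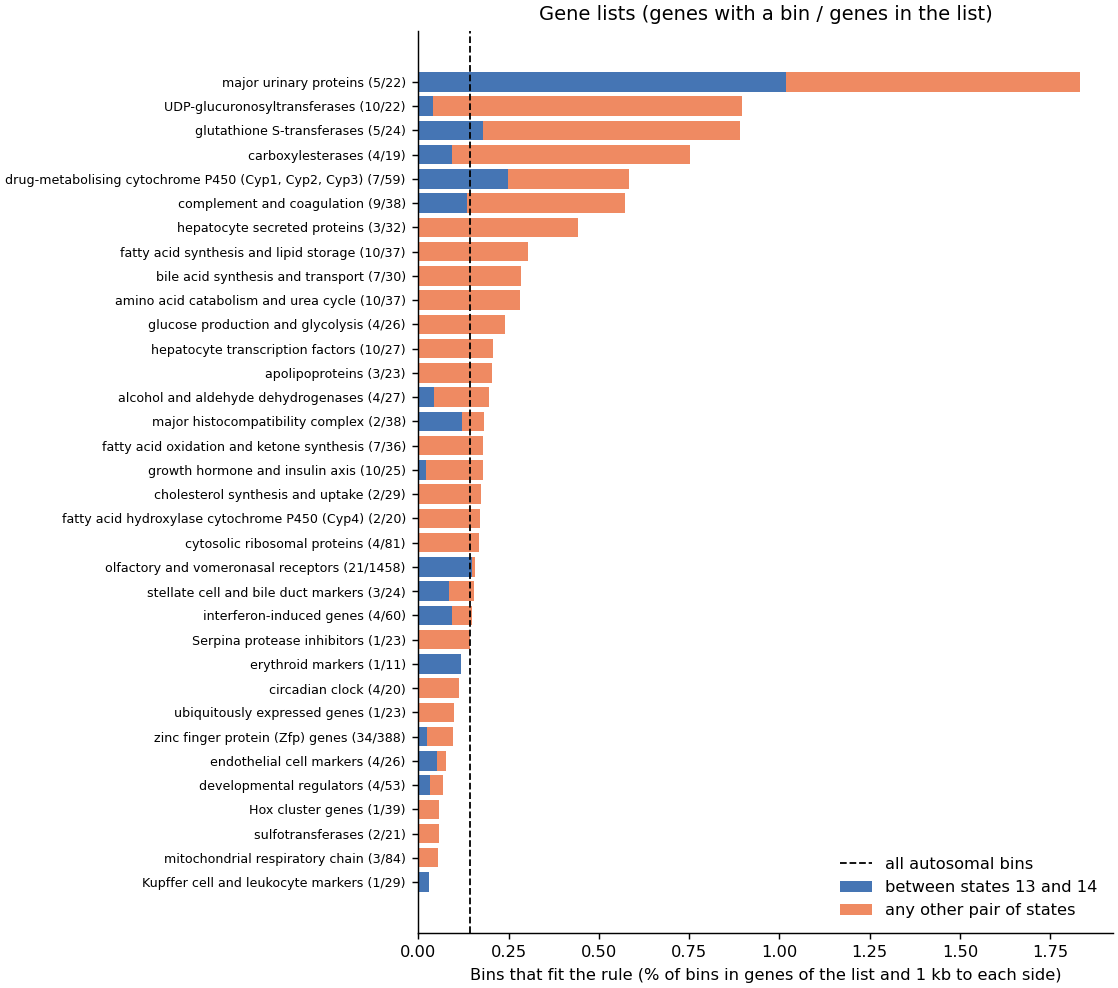
Percentage of the 200-bp bins in the genes of each list, with 1 kb to each side, that fit the rule, split into exchanges between states 13 and 14 (blue) and all others (orange), with genes with a bin and genes in the list in brackets. The dashed line is the 0.142% of all autosomal bins, and the bar is 1.83% for the major urinary proteins and 0.0300% for Kupffer cell and leukocyte markers.

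Within the Cyp3a genes the swaps ran in different directions. Cyp3a16 (chr5:145436309-145469740) had 22 bins of state 14 against 13. State 13 held 2 of its bins in CAST/EiJ and 0 in PWK/PhJ and WSB/EiJ, and between 49 and 127 in the laboratory strains with a median of 77.5. Cyp3a11 (chr5:145854607-145879854), a major drug-metabolising enzyme of mouse liver, had 8 bins of 2 against 1 and 6 of 4 against 2. State 1 held 40 of its 137 bins in CAST/EiJ, 26 in PWK/PhJ and 25 in WSB/EiJ, and between 60 and 82 in the laboratory strains with a median of 65.5. Cyp3a44 (chr5:145773983-145805891) had the reverse, with 7 bins of 1 against 2: state 1 held 62, 58 and 60 bins in CAST/EiJ, PWK/PhJ and WSB/EiJ and between 31 and 47 in the laboratory strains. Cyp3a11 and Cyp3a44, neighbours in 1 cluster, thus had state 1 more widely in opposite strain groups.

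Other enzymes of the same lists had other swaps. Ugt2b36 (chr5:87065927-87092555), which joins glucuronic acid to its substrates, had 11 bins of 6 against 8. State 8 held 33 bins in CAST/EiJ, 14 in PWK/PhJ and 16 in WSB/EiJ, and between 47 and 67 in the laboratory strains. Ugt3a2 had 7 bins of 14 against 6. In Gstt1 (chr10:75783813-75798584), a glutathione S-transferase, 6 of 7 bins were 2 against 1, and state 2 held 18, 12 and 14 bins in CAST/EiJ, PWK/PhJ and WSB/EiJ and between 2 and 6 in the laboratory strains. Ces2h had 9 bins with 4 kinds of swap, and state 1 held 25, 23 and 22 bins against 8 to 15.

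Of 32 genes for proteins secreted by hepatocytes, 3 had a bin, Fetub 10, and Fgb and Apob 1 each. Their share of bins that fit was 0.443%. Fetub (chr16:22918382-22939768) encodes fetuin-B, a protease inhibitor that the liver releases into blood. It had 8 bins of 1 against 4 and 2 of 1 against 2. State 1 held 58 of its 118 bins in CAST/EiJ, 48 in PWK/PhJ and 37 in WSB/EiJ, and between 17 and 22 in the laboratory strains with a median of 21. The groups did not overlap.

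Of 27 hepatocyte transcription factors, 10 had a bin, with 22 bins in all and 0.206% of their bins. Zbtb20, a repressor of fetal liver genes, had 8, and Ppara, the nuclear receptor that turns on fat burning, had 4, all 2 against 1. Over the whole of Ppara the groups overlapped: state 1 held 153, 150 and 165 bins in CAST/EiJ, PWK/PhJ and WSB/EiJ and between 143 and 199 in the laboratory strains. In the lists of secreted proteins, hepatocyte transcription factors, bile acid, cholesterol, fatty acid synthesis, fatty acid oxidation, glucose and amino acid genes, 0 bins were exchanges between 13 and 14. State 13 held on average only 0.00821% of the bins of the secreted protein genes, so such an exchange could hardly occur there. Other lists, such as sulfotransferases and circadian clock genes, had 0 as well.

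In 3 lists of lipid metabolism most bins were 2 against 1, the order that was also commoner in the whole set. This was not particular to lipid genes: the swap held 5 of 9 bins in circadian clock genes. It was also the commonest in hepatocyte transcription factors, with 8 of 22. In other lists another swap led, such as 2 against 4 in amino acid genes, with 7 of 19. The list of cholesterol synthesis and uptake had a bin in 2 of 29 genes, and 5 of 6 bins were 2 against 1. In fatty acid synthesis and lipid storage, 10 of 37 genes had a bin and 17 of 28 bins were 2 against 1. Elovl5, which lengthens polyunsaturated fatty acids, had 7 bins, and state 1 held 149, 123 and 135 bins in CAST/EiJ, PWK/PhJ and WSB/EiJ against 161 to 191 in the laboratory strains. Gpam, which starts triglyceride synthesis, had 5, and Elovl2 and Fads2 had 3 each. In bile acid synthesis and transport, 7 of 30 genes had a bin and 12 of 21 bins were 2 against 1. Scp2, a sterol carrier and peroxisomal thiolase, had 11 bins, and state 1 held 94, 86 and 112 bins against 127 to 227. In fatty acid oxidation and ketone synthesis, 7 of 36 genes had a bin, and of 14 bins 6 were 1 against 3 and 5 were 2 against 1. There Cpt1a, which admits fatty acids to mitochondria, had 3 bins of 1 against 3 and 3 of 2 against 1, and over the whole gene the groups overlapped in state 1. In Foxo3, a transcription factor that insulin signalling holds in check, 4 of 6 bins were 6 against 2.

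Complement and coagulation genes had 0.572% of their bins and 9 of 38 genes. C7, a component of the membrane attack complex, had 8 bins of 14 against 13. State 13 held 84, 11 and 73 of its bins in the wild-derived strains and between 90 and 200 in the laboratory strains.

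Some lists held few bins. Genes of the mitochondrial respiratory chain had 0.0534% (3 of 84 genes), developmental regulators 0.0668% (4 of 53), Hox cluster genes 0.0580% (1 of 39) and zinc finger protein genes 0.0967% (34 of 388). Olfactory and vomeronasal receptors had 0.157%, but in 21 of 1458 genes, and 66 of their 70 bins were exchanges between 13 and 14. Olfr576 had 11 of 16 bins in state 13 against 14. There state 13 held 11 bins in CAST/EiJ, 16 in PWK/PhJ and 16 in WSB/EiJ, 3 in NOD/ShiLtJ and 0 in the other 5 laboratory strains.

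Markers of other liver cells were looked at because a sample of hepatocytes can hold them. Endothelial markers had a bin in 4 of 26 genes and 0.0766% of their bins, Kupffer cell and leukocyte markers in 1 of 29 and 0.0300%, stellate cell and bile duct markers in 3 of 24 and 0.154%, and erythroid markers in 1 of 11 and 0.119%. Col1a2, a collagen chain of stellate cells, had 5 bins of 14 against 13. State 13 held 11, 14 and 10 of its 190 bins in CAST/EiJ, PWK/PhJ and WSB/EiJ and between 15 and 35 in the laboratory strains. Without the 5 bins the groups would overlap. Prom1, of the same list, had another swap, with 3 bins of 4 against 14. State 4 held 45 to 57 of its bins in the wild-derived strains and 15 to 41 in the laboratory strains. Whether the mixture of cells differed between the strain groups was not tested.

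Whether the groups also differed outside these bins was tested on the rest of the autosomes with an exact two-sided permutation test over the 84 ways to choose 3 of 9 strains, which cannot give a p below 0.0119. Of 14 states, 0 had a genome share that differed after Benjamini-Hochberg adjustment, and 0 at an unadjusted p under 0.05. A single state at the smallest possible p could not have passed the adjustment over 14 states, so the adjusted count says little. The lowest unadjusted value was that of state 8 (exact permutation p = 0.179). State 13 held 11.6% ± 1.36 in the wild-derived strains (SD, n = 3) and 10.7% ± 1.38 in the laboratory strains (SD, n = 6; exact permutation, adjusted p = 0.667). State 14 held 76.3% ± 1.40 and 76.8% ± 1.61 (exact permutation, adjusted p = 0.731). State 9 held 0.597% ± 0.325 and 0.921% ± 0.363 (exact permutation, adjusted p = 0.667). These differences were smaller than the SD of the laboratory strains.

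**Figure D5:**
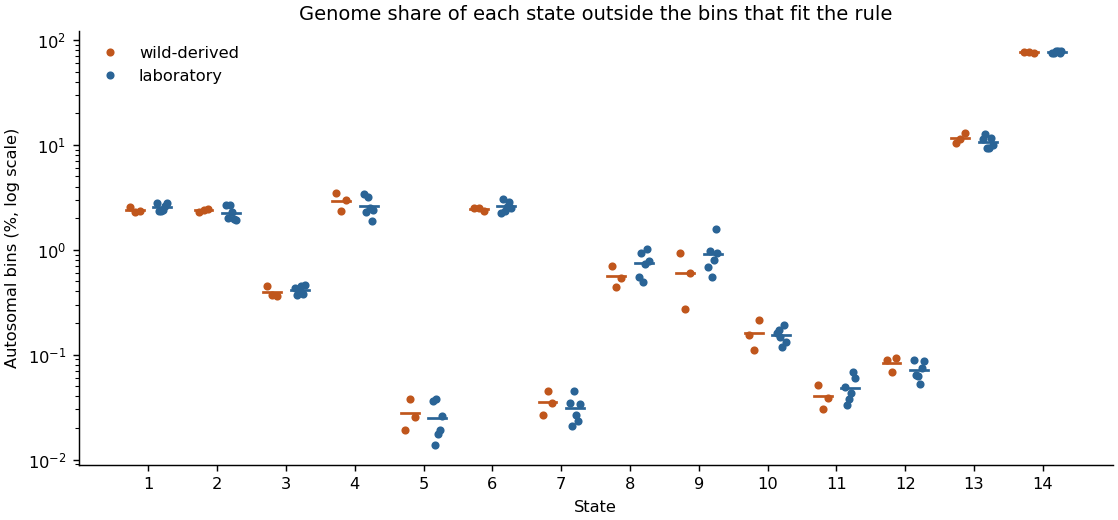
Percentage of autosomal bins in each of the 14 states, outside the bins that fit the rule, on a log axis, with 1 point per strain and a line at the mean of each group. The points of the 3 wild-derived and the 6 laboratory strains overlap in states such as 13, where the means are 11.6% and 10.7%.

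The number of autosomal segments, each an unbroken stretch of 1 state, was 650016 in CAST/EiJ, 625553 in PWK/PhJ and 597299 in WSB/EiJ. In the laboratory strains it lay between 548884 in C57BL/6J and 613235 in NOD/ShiLtJ, so the groups overlapped. The means were 624289 ± 26381 and 581957 ± 27821 (SD), a difference that did not pass the exact permutation test (p = 0.0833). The median state 14 segment was 4733 ± 306 bp long in the wild-derived and 4800 ± 253 bp in the laboratory strains, and the median state 13 segment 1533 ± 231 bp and 1600 ± 179 bp (exact permutation, adjusted p = 0.762 for each).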

How the data were processed

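The deposited segmentations give intervals in steps of 200 bp whose column 4 is a state number, a category and not a count, signal or score. Per the file headers each holds 1 strain's hepatocytes. The authors' 117 libraries (13 per strain) are pooled in them, so depth per sample is unknown. The submitters' processing notes name mm10, FastQC 0.11.5 and MACS 1.4.2 with no role. The aligner and segmentation tool are not given in the sources used here. A file of all strains repeated the strain files end to end and was not used.

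Bins were read as 1 state per strain, and the rule was applied on autosomes. Genes came from a RefSeq table and starts from a RefSeq promoter table of GRCm38.p6, which gave a start for 16457 of 20665 protein-coding genes (79.6%) and none on chromosome 18. Genes named were the 15 with the most bins, the 15 with the highest share of bins within 1 kb of a start (at least 3 bins), and up to 4 per list with at least 3 bins, over 34 lists. A gene that this rule names is not reported here. The bins, rule, lists and tests were chosen with earlier results of these data known. Tests were exact two-sided permutations over 84 assignments of strains, with Benjamini-Hochberg adjustment over states. Alternatives left out each strain, merged states 13 and 14, asked for runs of 600 bp or a neighbour, and changed windows, flanks or chromosomes. Python 3.11.15, numpy 2.4.6, scipy 1.17.1 and matplotlib 3.10.9 were used. To check the code, 2000 bins of the chromosome 19 states were overwritten to fit the rule, and 2000 were found. This shows only that the rule was coded as stated, since noise was not part of it.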

Additional observations from a re-analysis of the deposited data

Results flagged for a closer look

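Chromosome X lies outside the autosomal rule and is given here because a signal was present there. On X, 2352 of 855156 bins fitted the same rule, or 0.275%, against 0.142% of autosomal bins. Of these, 2144, or 91.2%, had state 14 in the wild-derived and state 13 in the laboratory strains, and 5 had the opposite order, while on the autosomes the orders held 4422 and 5438 bins. State 13 held 85.6% of X in CAST/EiJ, 84.3% in PWK/PhJ and 74.7% in WSB/EiJ, and between 85.9% in A/J and 89.0% in C57BL/6J in the laboratory strains. The groups did not overlap, but CAST/EiJ and A/J were close. The X values include the bins that fit. State 13 thus filled most of X in every strain. Among the laboratory strains, 17 sets of values were searched for a strain far from the others and 0 were found, where chance gives about 0.85.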

How the results depend on the processing

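The number of bins that fit ranged from 23329 to 134886 with 1 strain left out, and was 7831 with states 13 and 14 merged and 8537 in runs of at least 600 bp. The share with the wild-derived strains in state 14 ranged from 24.8% to 46.2% with 1 strain left out (24.8% without PWK/PhJ), and was 35.4% with the states merged, 44.3% in runs of at least 600 bp and 41.9% with a neighbouring bin that also fits. The share within 1 kb of a gene start ranged from 2.32% to 3.02% with 1 strain left out, and was 4.29% merged, 2.12% in runs of at least 600 bp and 2.09% with a neighbour. It was 1.47% for windows of 500 bp (1.38% of all bins) and 5.82% for 2 kb (4.54% of all bins). Genes with a bin ranged from 3379 to 7234 with 1 strain left out, and were 612 for runs of at least 600 bp, 1176 with a neighbour and 880 with at least 3 bins. Runs of at least 600 bp and bins with a neighbour were thus less often near a start than all bins that fit.

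The difference between wild-derived and laboratory strains in the share of state 13 was 0.868 points on the autosomes and -6.40 points on X (exact permutation, adjusted p = 0.0556), and 0.136 to 1.49 with 1 strain left out. For state 14 it was -0.531 points, 6.43 on X (same adjusted exact p), and -1.21 to 0.188 with 1 strain left out, with a change of sign without WSB/EiJ. On X 4 states had an unadjusted p under 0.05 and 0 an adjusted one, in the exact permutation test, where 3 states were at the smallest possible p and adjustment over 14 states could not bring them under 0.05. The number of segments differed by 4514.33 on X (exact permutation p = 0.0119, the smallest possible), and on autosomes by 29469.3 to 55827.8 with 1 strain left out. The median length of state 14 segments differed by -200 to 100 bp with 1 strain left out, with a change of sign without WSB/EiJ, and that of state 13 segments by -200 to 0 bp. The cause of these changes was not tested. No paired analysis was possible because each strain has 1 segmentation and replicate numbers tie no strain to another. Depth is unknown, so it could not be said which strains are measured more precisely, and mice within a strain could not be compared.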
